A study of Homo sapiens with 18 samples.

Results

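U3 is the box C/D small nucleolar RNA (snoRNA) encoded in human cells by a small family of near-identical genes. The 5 genes described here, SNORD3A, SNORD3B-1, SNORD3B-2, SNORD3C and SNORD3D, were taken by Ensembl ID (ENSG00000263934, ENSG00000265185, ENSG00000262074, ENSG00000264940 and ENSG00000262202) out of 60666 gene IDs listed. All 5 were listed and tested in each of the 4 deposited comparison tables. The family was chosen by name and with earlier results of these data known, so that it was in effect selected on the low IP enrichment of SNORD3A in the R-mutant relative to wild-type ADAR3. The values of that comparison are therefore a description, the counts of calls printed for it support nothing, and the other IP comparisons, which share libraries with it, are not independent evidence.

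Most box C/D snoRNAs guide the methylation of ribosomal RNA, whereas U3 base-pairs with the ribosomal RNA precursor and is needed for the early cleavages that release the RNA of the small ribosomal subunit. Its genes stand on their own promoters and are transcribed by RNA polymerase II, and the transcript receives a trimethylguanosine cap. Mature U3 is carried by the box C/D core proteins fibrillarin, NOP56, NOP58 and SNU13 together with the U3-specific protein RRP9, within the small-subunit processome of the nucleolus. ADAR3 belongs to the ADAR proteins, which bind double-stranded RNA, but has no detectable editing activity of its own, and its R-domain, rich in arginine, is an additional contact for single-stranded RNA.

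The study expressed an ADAR3 with a mutated R-domain (R-mutant), the wild-type protein (ADAR3 WT), both with a FLAG tag, or an empty vector with an antibiotic resistance gene (Control) by retroviral transduction of the human glioblastoma cell line U373-MG. All cells were kept under G418 and crosslinked with UV light at 150 mJ/cm2, and RNA from the immunoprecipitate (IP) was sequenced beside input RNA, with 3 libraries in each of 6 groups. The R-mutant and ADAR3 WT proteins are exogenous, and the labels do not say whether the replicates came from separate cultures, so that errors may be technical. IP enrichment is the fold change of the authors' 3 IP tables, R-mutant/Control, ADAR3 WT/Control and R-mutant/ADAR3 WT, each read as IP relative to input in the genotype named before the stroke, divided by the same ratio in the genotype after it. All values are relative to the other RNAs of a library, since counts were scaled between libraries. The fourth table sets the input RNA of ADAR3 WT cells against that of Control cells. The level of a gene is its mean normalized count in a table, taken over all libraries that the authors modelled, and the errors given are standard errors on the log2 scale. Depth per library is unknown and single libraries were not analysed here, so each comparison gives a level, a fold change and an error for each gene, not a value for each sample. The transgene and the identity genes of the line were not checked, because the files do not pair IDs with symbols.

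The 5 U3 genes lie together on chromosome 17, and in RefSeq (GRCh38.p14) each is annotated as a snoRNA of 217 bases that no other annotated gene overlaps. SNORD3B-1 is at chr17:19061912-19062128 and SNORD3B-2 at chr17:19063920-19064136, with 1791 bases between them. SNORD3D stands alone at chr17:19112420-19112636. SNORD3A at chr17:19188016-19188232 and SNORD3C at chr17:19190029-19190245 form another pair, 1796 bases apart. The whole family spans 128334 bases. SNORD3B-1 and SNORD3B-2 lie between GRAP and the pseudogene KYNUP2, and SNORD3A and SNORD3C lie between the pseudogenes KYNUP1 and KYNUP3.

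Most of the signal assigned to U3 belonged to SNORD3A. In the authors' deposited tables its mean was 3820 normalized counts in R-mutant/Control, 5384 in ADAR3 WT/Control, 5477 in R-mutant/ADAR3 WT and 5231 in input. These were 85.0%, 87.5%, 88.6% and 83.9% of the summed means of the 5 genes. SNORD3A ranked above 92.6% to 95.1% of tested genes by mean in the 4 tables.

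SNORD3B-1, SNORD3B-2 and SNORD3D held similar and much lower levels. SNORD3B-1 had means of 225, 259, 254 and 378 normalized counts in the authors' deposited tables, in the same order of comparisons. SNORD3D had 255, 286, 261 and 364, and SNORD3B-2 had 184, 210, 176 and 249 in the authors' deposited tables. SNORD3A thus had 13.9 times the mean of SNORD3B-1 in input and 21.6 times in R-mutant/ADAR3 WT. The order of SNORD3B-1 and SNORD3D changed between tables, while SNORD3B-2 was below both in all 4.

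SNORD3C, the neighbour of SNORD3A, was scarce, with a mean above that of only 16.6% to 25.9% of tested genes. Its means in the authors' deposited tables were 10.5, 13.1, 12.5 and 16.2 normalized counts, or 0.203% to 0.259% of the family total. The 5 annotations have equal length in RefSeq, so on that annotation these ratios hold per base, but which gene models the authors counted is not given in the sources used here. Because the copies are near-identical and the treatment of reads that match several of them is likewise not given, the division of reads between them is uncertain.

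**Figure D1:**
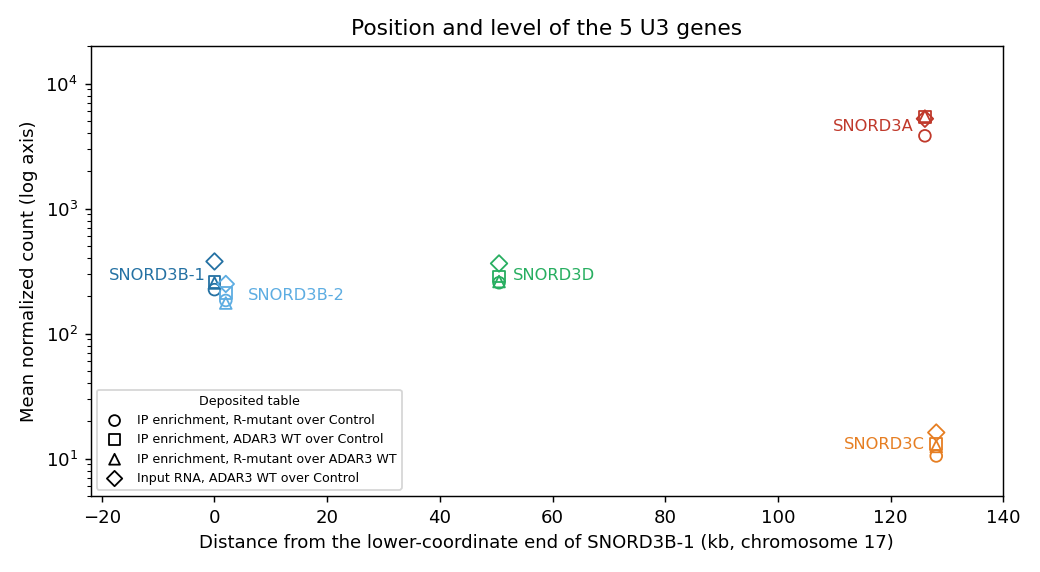
Mean normalized count (log axis) of each U3 gene in the 4 deposited tables (marker shapes), placed by distance in kb from SNORD3B-1 along chromosome 17. SNORD3A lies between 3820 and 5477, and its neighbour SNORD3C between 10.5 and 16.2.

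In R-mutant cells, SNORD3A, the main copy, was less enriched in the IP than in Control cells, by more than its error allows. Control cells carry the empty vector and no FLAG-tagged ADAR3, so this value lies below an IP without ADAR3 bait. Whether either protein binds U3 was not tested. The authors' deposited table of R-mutant/Control gave SNORD3A a log2 fold change of -1.32 ± 0.30. This is 2.49-fold lower IP enrichment in the R-mutant, with a 95% interval of 1.67-fold to 3.73-fold, and it passed the test (two-sided normal test of the fold change divided by its error, Benjamini-Hochberg adjusted p 0.000251 over 21120 genes). The comparison shares the R-mutant libraries with the one that the choice of the family rested on, so this p-value is not independent evidence. In bulk RNA, a difference in every cell and one in part of the cells cannot be told apart.

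The other 4 copies had fold changes on the same side of 0 and did not pass. SNORD3B-2 had -0.91 ± 0.46 in the authors' deposited table (adjusted p of the normal test 0.202), with a 95% interval from -1.82 to just above 0. SNORD3B-1 had -0.69 ± 0.37 in the authors' deposited table (adjusted p of the normal test 0.233). SNORD3D had the fold change nearest to 0, -0.43 ± 0.47 in the authors' deposited table (adjusted p of the normal test 0.634).

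SNORD3C had -1.11 ± 1.25 in the authors' deposited table, an error too wide to place it on either side (normal test adjusted p 0.648). The median of the 5 genes was -0.91, beside 0.03 for all tested genes. In this comparison 1 of 5 U3 genes was called lower, where 7.95% of all tested genes were called lower and 13.3% in either direction. Among 3113 other genes with a mean within 2-fold of that of SNORD3A, 112 had a fold change as low as SNORD3A.

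With ADAR3 WT, no U3 copy differed detectably from Control in IP enrichment. The authors' deposited table of ADAR3 WT/Control gave SNORD3A a log2 fold change of 0.19 ± 0.37, and its 95% interval ran from -0.54 to 0.91 (normal test adjusted p 0.817). A 2-fold difference in either direction was thus outside the interval for SNORD3A. SNORD3B-1, at -0.26 ± 0.34 in the authors' deposited table, also had an interval inside a 2-fold difference (-0.93 to 0.41). The error of SNORD3A here, 0.37, was smaller than its 0.75 in input RNA of the same genotypes. The authors' model is not given, so these intervals hold only as far as the deposited errors do.

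For the remaining copies the intervals reached past a 2-fold difference. The authors' deposited table gave -0.61 ± 0.38 for SNORD3B-2 (normal test adjusted p 0.325) and -0.49 ± 0.41 for SNORD3D (normal test adjusted p 0.504). SNORD3C had 1.12 ± 1.07 in the authors' deposited table, with an interval from -0.98 to 3.21. No U3 gene was called by the normal test, 0 of 5 beside 14.1% of 21121 tested genes, and 0 of 5 had an unadjusted p under 0.05, beside 25.2%. The median of the 5 genes was -0.26, beside 0.01 for all tested genes.

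Both comparisons use the same Control libraries. SNORD3A and SNORD3C had values below 0 in R-mutant/Control and above 0 in ADAR3 WT/Control. SNORD3B-1, SNORD3B-2 and SNORD3D were below 0 in both. In ADAR3 WT/Control the intervals of all 5 copies covered 0, and in both comparisons the interval of every other copy overlapped that of SNORD3A. Overlap is not a test of a difference, and the copies share libraries. Differences between copies were not tested, so nothing is read from these signs.

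**Figure D2:**
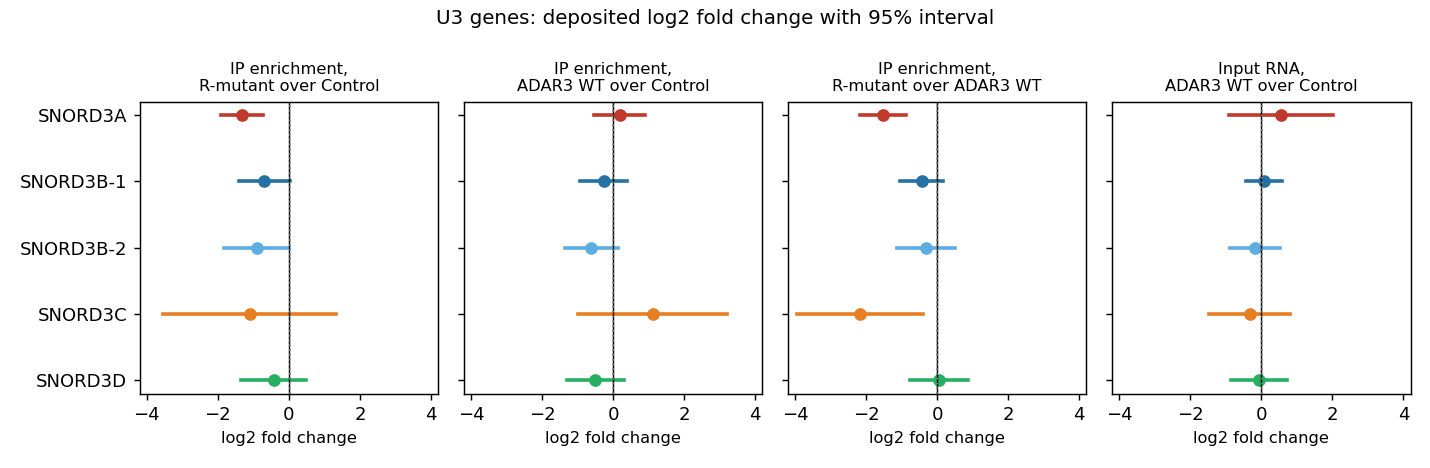
Deposited log2 fold change (points) of each U3 gene with its 95% interval (bars) in the 3 IP comparisons and in input; the solid line is 0 and the dotted line the median of all tested genes. The interval of SNORD3A lies below 0 in R-mutant/Control (-1.90 to -0.74) and in R-mutant/ADAR3 WT (-2.17 to -0.87), and covers 0 in the other 2 panels.

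When both proteins were compared directly, SNORD3A stood far below other abundant RNAs. The authors' deposited table of R-mutant/ADAR3 WT put its log2 fold change at -1.52 ± 0.33, or 2.87-fold lower IP enrichment in the R-mutant, with a 95% interval of 1.83-fold to 4.51-fold. Of 6645 tested genes whose mean was at least 1000, 0 had a lower fold change, and of 13789 genes whose mean was at least 50, 6 did. Genes with a mean within 2-fold of that of SNORD3A, 2524 in number, had a median of -0.03. SNORD3A was among the values known when the family was chosen, so these ranks describe it and test nothing. In ADAR3 WT/Control it had 0.19 ± 0.37, no detectable enrichment over the empty vector. The lower value in the R-mutant is therefore not read as lost binding, which was not tested.

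SNORD3C was the other copy whose interval lay below 0. It had -2.17 ± 0.90 in the authors' deposited table, with an interval from -3.94 to -0.40, at a mean of only 12.5 normalized counts. Of 3986 other genes with a mean within 2-fold of its own, 11 had a fold change as low.

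The 3 copies of intermediate level lay closer to 0. SNORD3B-1 had -0.44 ± 0.30 and SNORD3B-2 had -0.31 ± 0.42 in the authors' deposited table, and both intervals covered 0. SNORD3D had 0.05 ± 0.42 in the authors' deposited table, with an interval from -0.77 to 0.86 that lay inside a 2-fold difference.

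The interval of SNORD3D did not overlap that of SNORD3A, a difference of -1.57 between SNORD3A and SNORD3D on the log2 scale. The intervals of the other 3 copies overlapped that of SNORD3A. The copies share libraries and possibly reads, and the difference between copies was not tested. The median of the 5 genes was -0.44, beside -0.02 for all tested genes. By the normal test 0 of 5 passed over 23385 genes, beside 0.00428% of all tested genes, and 2 of 5, SNORD3A and SNORD3C, had an unadjusted p under 0.05 beside 0.624%. Nothing is read from these counts, since this comparison entered the choice of the family.

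The fold changes of the 3 IP tables fitted together for every copy. Subtracting the fold change of ADAR3 WT/Control from that of R-mutant/Control gave -1.51 for SNORD3A, beside -1.52 in the authors' deposited table of the direct comparison. The same subtraction gave -0.43 for SNORD3B-1, -0.30 for SNORD3B-2, -2.22 for SNORD3C and 0.06 for SNORD3D. The largest gap to the direct value was 0.054, in SNORD3C. The tables share libraries, so this shows that the values were computed alike and adds no replicate.

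**Figure D3:**
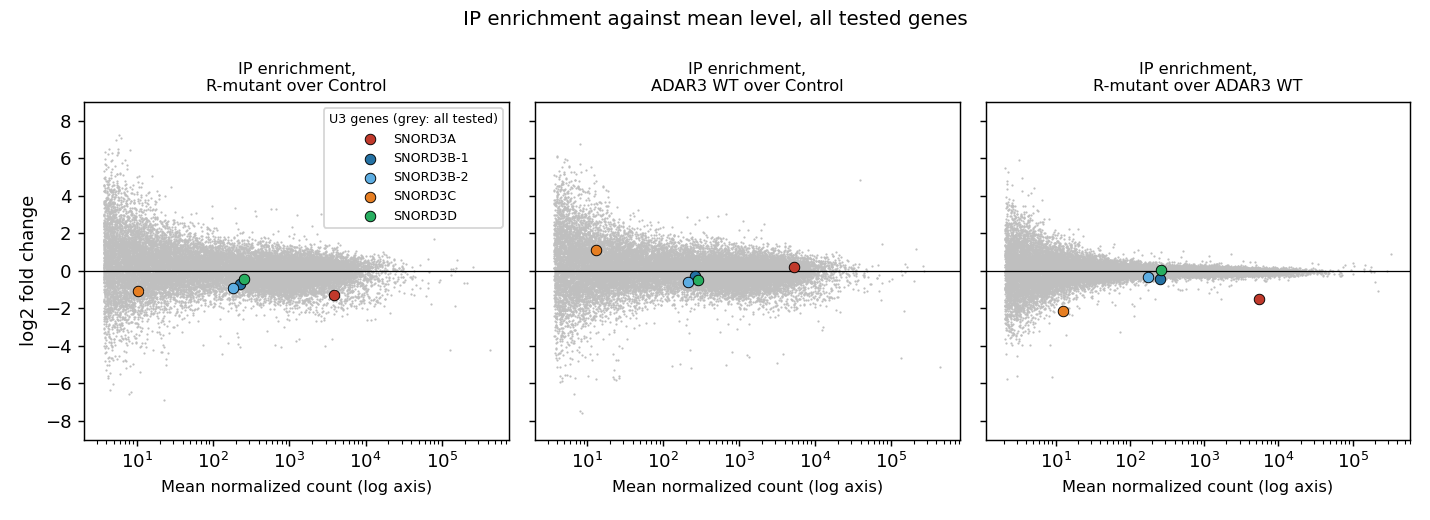
Deposited log2 fold change against mean normalized count (log axis) in the 3 IP comparisons, with all tested genes in grey and the U3 genes in colour. SNORD3A lies within the spread of abundant genes in both comparisons with Control, and at -1.52 it lies below all other genes whose mean was at least 1000 in R-mutant/ADAR3 WT.

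In input RNA, no U3 copy differed detectably between ADAR3 WT and Control cells. The authors' deposited input table gave SNORD3A a log2 fold change of 0.56 ± 0.75, with an interval from -0.91 to 2.03. A 2-fold rise in ADAR3 WT was therefore not excluded for the main copy. The fold change of SNORD3A was above that of 99.6% of 2946 other genes with a mean within 2-fold, and its error above that of 99.9%. SNORD3B-1 had 0.08 ± 0.26, SNORD3B-2 had -0.17 ± 0.36 and SNORD3D had -0.06 ± 0.40 in the authors' deposited input table, all with intervals inside a 2-fold difference.

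SNORD3C had -0.33 ± 0.59 in the authors' deposited input table, with an interval from -1.47 to 0.82. By the normal test 0 of 5 passed, beside 0.289% of 20411 tested genes, and 0 of 5 had an unadjusted p under 0.05, beside 2.92%. In input the authors' p-values are those of the same normal test, so their 0 of 5, beside 0.289%, is the same result. The median of the 5 genes was -0.06, beside 0.03 for all tested genes. Input of the R-mutant was not analysed here.

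SNORD3A was measured with an unusually large error for so abundant an RNA. In input its standard error of 0.75 exceeded that of 99.9% of 2946 other genes with a mean within 2-fold, whose median standard error was 0.21. Its standard error was above 99.9% of such genes in ADAR3 WT/Control, where their median was 0.22. In R-mutant/ADAR3 WT it was above 99.7%, beside a median of 0.19. In R-mutant/Control, the table named for the genotypes other than ADAR3 WT, it was 0.30 and above 91.1%, beside a median of 0.24.

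SNORD3D and SNORD3B-2 also had large errors for their level, and SNORD3B-1 less so. The standard error of SNORD3D exceeded that of 94.7% to 99.0% of genes of like mean in the 4 tables. SNORD3B-2 exceeded 70.8% to 97.7%, and SNORD3B-1 exceeded 63.7% to 81.7%. The wide error of SNORD3C was usual for its level, above 41.1% to 58.2% of such genes. Which libraries carry the spread was not tested.

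**Figure D4:**
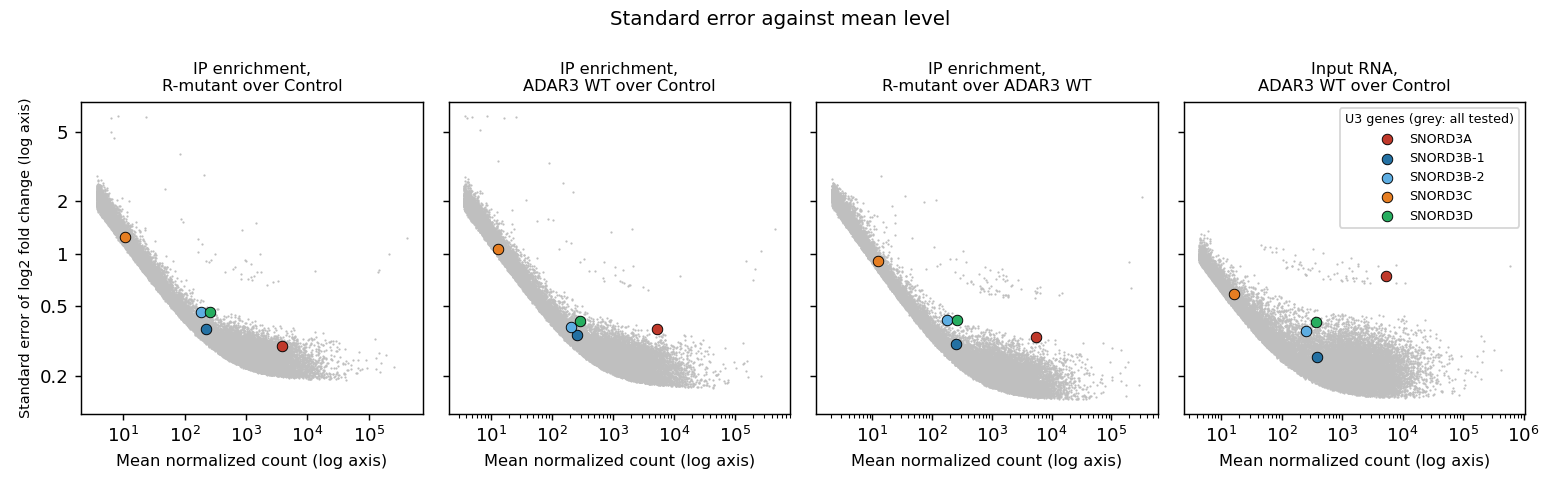
Standard error of the log2 fold change against mean normalized count (both log axes) in the 4 deposited tables, with all tested genes in grey and the U3 genes in colour. SNORD3A lies above nearly all genes of its level in input (0.75), in ADAR3 WT/Control (0.37) and in R-mutant/ADAR3 WT (0.33), and less far in R-mutant/Control (0.30).

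The level of SNORD3A also moved between tables. Its mean in R-mutant/Control was 0.710 times that in ADAR3 WT/Control, where the median ratio over 13431 genes whose mean reached at least 50 in all IP tables was 0.919. Only 0.201% of those genes had a lower ratio. Against the table of R-mutant/ADAR3 WT the ratio was 0.697, beside a median of 0.871, and 3.68% of genes had a lower ratio.

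The other copies did not lie so low in both ratios. The mean of SNORD3B-1 in R-mutant/Control was 0.866 times that in ADAR3 WT/Control (9.55% of genes lower) and 0.885 times that in R-mutant/ADAR3 WT (55.9% lower). SNORD3D had ratios of 0.892 and 0.978, and SNORD3B-2 had 0.875 and 1.05. SNORD3C, at means of 10.5 to 13.1 in these tables, had a ratio of 0.803 to ADAR3 WT/Control (1.17% of genes lower). Its ratio to R-mutant/ADAR3 WT was 0.839 (36.5% lower). The genes it was ranked among all had a mean of at least 50, so these shares are not among genes of like level. The level of SNORD3A was thus lowest, relative to other genes, in the table named without ADAR3 WT. The tables were normalized separately and their means may include both IP and input libraries, so these ratios are descriptions only.

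The authors' own test gave calls for most U3 copies in each IP table. By the adjusted p in the authors' deposited tables, SNORD3A, SNORD3B-1, SNORD3B-2 and SNORD3D passed in all 3 IP comparisons and SNORD3C in none. That is 4 of 5 each time, beside 40.8% of tested genes in R-mutant/Control, 43.0% in ADAR3 WT/Control and 51.1% in R-mutant/ADAR3 WT. For SNORD3A the adjusted p was 4.94e-09 in the authors' deposited table of R-mutant/Control and 8.55e-07 in that of ADAR3 WT/Control. These p-values are those of a chi-square statistic on 7 degrees of freedom, so the authors' test spans more than the single fold change printed with it. SNORD3D, for example, passed in the authors' deposited table of R-mutant/ADAR3 WT at a fold change of 0.05 on the log2 scale.

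The genes whose fold changes were most like those of SNORD3A were sought among the 13283 genes whose mean reached at least 50 in all 4 tables, by the Euclidean distance over the 4 log2 fold changes. The nearest was ENSG00000285646 at a distance of 0.958, followed by ENSG00000091138 at 0.997. These places depend on the limit: with a mean of at least 10 in place of 50 they ranked 16 and 19. The files do not pair these IDs with symbols. In R-mutant/ADAR3 WT, ENSG00000285646 had -0.80 ± 0.24 and ENSG00000091138 had -0.86 ± 0.20 in the authors' deposited table, both nearer to 0 than SNORD3A.

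Of the other U3 copies, SNORD3B-1 ranked 28 in likeness at a distance of 1.41, SNORD3B-2 ranked 310 at 1.67 and SNORD3D ranked 4755 at 2.02. With a mean of at least 10 in place of 50, their ranks were 157, 637 and 5603. The distance includes R-mutant/ADAR3 WT, which the choice of the family rested on, so these ranks are descriptions only. SNORD3C was not ranked because its mean was under 50.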

How the data were processed

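The 18 libraries were processed by the authors with STAR 2.7.7a, featureCounts and DESeq2 on GRCh38, per the submitters' processing notes. Per the labels' protocols, libraries were made strand-specific after depletion of ribosomal RNA, with 15 cycles of PCR. Neither annotation nor model formula is given in the sources used here. Per the file headers, the 4 deposited tables hold a mean of normalized counts (a signal), log2 fold changes and their standard errors, a test statistic (a score), a p-value and an adjusted p-value. Another 6 columns of the input table, each of a single library, could not be matched to a label and were not used.

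Each deposited log2 fold change was divided by its standard error and tested against the normal distribution (two-sided), with Benjamini-Hochberg adjustment at 0.05 over all genes with a deposited adjusted p-value. Within a relative tolerance of 0.01, p-values in the IP tables matched a chi-square distribution and those of the input table matched this normal test. IP fold changes were read as ratios of IP over input. Among genes with an input mean under 10, they had a slope on the input fold change of -0.79 in ADAR3 WT/Control (3282 genes) and 0.48 in R-mutant/ADAR3 WT (5546 genes). The procedure was tested on simulated data, drawn with normal noise of the size of the deposited standard errors. That simulation cannot show whether those errors, or the normal reading, hold in these data.

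The named genes were fixed as the 5 U3 genes and the 5 genes nearest to SNORD3A, of which 2 are printed. The U3 genes and these lists were chosen with earlier results of these data known. The lists of U3 proteins and processome factors could not be used, because no table used here links their symbols to Ensembl IDs. Positions come from RefSeq, matched by symbol for 5 of 5 genes. Tests used scipy 1.17.1 and statsmodels 0.14.6, tables pandas 2.3.3 and numpy 2.4.6, and plots matplotlib 3.10.9, all under Python 3.11.15. Alternatives were the authors' adjusted p, a threshold of 0.01, a mean of at least 50, no filter, and centring on the median.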

Additional observations from a re-analysis of the deposited data

How the results depend on the processing

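No paired analysis was possible, because no single-library values were at hand for the IP comparisons and the single-library columns of input could not be matched to the labels. For the same reasons, replicates left out, other count models and other size factors were not run. By the authors' adjusted p, the number of U3 genes called was 4 in R-mutant/Control, 4 in ADAR3 WT/Control and 4 in R-mutant/ADAR3 WT, against 1, 0 and 0 by the normal test; that test covers more terms than the fold change. With only genes of a mean of at least 50, by construction fewer genes tested, 1 U3 gene (SNORD3A) was called in R-mutant/ADAR3 WT, the comparison that the choice of the family rested on, so that this call supports nothing. The other 16 of 20 counts of U3 genes called did not move, but some of them could not have moved. The stricter threshold cannot add calls where no U3 gene was called, as in ADAR3 WT/Control, R-mutant/ADAR3 WT and input. In input the authors' p-values are those of the normal test, so that alternative repeats the main result. Such unchanged counts say nothing about robustness. With a mean of at least 10 in place of 50, 0 of the 5 genes nearest to SNORD3A were shared, while the 3 IP comparisons alone kept 5 of 5. Depth per library is unknown, and the fold change of SNORD3C, at means of 10.5 to 16.2, is limited by its counts.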
